A study of Mus musculus with 2 samples.

Results

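The open chromatin regions farthest from any listed gene start were examined in cardiac progenitor cells (CPCs). A peak was taken when it lay on chromosomes 1 to 19, was under 1500 bp wide and had a deposited distance of over 250 kb, upstream or downstream, to the transcription start site (TSS) it was assigned to. Of 26232 distinct peaks in the list, 25606 lay on these chromosomes, and 509 of them (1.99%) met the rule. The nearest of the 509 lay 250324 bp from its start site and the farthest peak inside the limit lay at 249925 bp. The widest peak taken was 1498 bp, and 21 peaks over 250 kb away were left out for widths of 1578 bp or more.

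The assay was ATAC-seq, which uses the transposase Tn5 to cut and tag accessible DNA, and it was run on 2 replicate samples of 1 group. Both were CPCs at day 5 of directed differentiation of the mouse embryonic stem cell line E14 Tg(Nkx2–5-EmGFP), whose reporter marks cells expressing the early cardiac transcription factor Nkx2-5. The labels give the strain as C57BL/6, passages of 16-20 and no treatment, and Isl1 knockdown cells named in the series text are not analysed here. The cells were taken as a mixed culture, so fewer cells with an open site and a less open site in each cell cannot be told apart.

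Gene deserts are long stretches without protein coding genes, and many of them flank genes that encode developmental regulators. Enhancers in such stretches can act on a promoter far away, often skipping nearer start sites, so the gene assigned by distance need not be the target. An accessible site far from genes can be an enhancer, a CTCF-bound site that shapes loops, a start site missing from the gene list used, or a copy of repeated DNA.

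A single list of peaks found in both replicates was deposited, with no score and no value for either replicate. Depth was therefore unknown, no error between replicates could be computed, and every interval given below is a 95% interval for counting error over regions. These intervals treat peaks as independent. Some far peaks were near copies of one another or lay in the same locus, so the intervals can be too narrow. Absence from the list was not read as closed chromatin.

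The sequences below are the central 300 bp of 5 of the peaks, in the mm9 assembly on the plus strand, named by the assigned gene and the signed distance in bp. The Sox11, 1700109I08Rik, Auts2 and Fbxo8 peaks held 5 different motifs each, the most of any of the 509. The Spock1 peak was shown for a match to the CTCF motif and was chosen after its values were seen. Capitals mark the motif matches described further on.
Sox11 -444168, chr12:28471602-28471901: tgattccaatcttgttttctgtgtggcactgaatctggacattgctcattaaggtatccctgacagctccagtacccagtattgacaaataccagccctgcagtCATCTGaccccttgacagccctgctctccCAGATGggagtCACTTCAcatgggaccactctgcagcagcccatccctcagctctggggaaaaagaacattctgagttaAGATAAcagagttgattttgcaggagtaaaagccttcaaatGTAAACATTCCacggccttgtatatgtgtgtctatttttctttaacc
1700109I08Rik +360337, chr14:40829139-40829438: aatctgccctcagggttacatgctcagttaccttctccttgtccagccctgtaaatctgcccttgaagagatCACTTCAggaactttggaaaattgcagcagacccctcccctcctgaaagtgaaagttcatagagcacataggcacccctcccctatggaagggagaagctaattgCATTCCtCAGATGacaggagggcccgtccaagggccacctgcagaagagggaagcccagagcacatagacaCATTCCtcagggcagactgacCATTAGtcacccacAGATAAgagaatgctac
Auts2 -631069, chr5:133649133-133649432: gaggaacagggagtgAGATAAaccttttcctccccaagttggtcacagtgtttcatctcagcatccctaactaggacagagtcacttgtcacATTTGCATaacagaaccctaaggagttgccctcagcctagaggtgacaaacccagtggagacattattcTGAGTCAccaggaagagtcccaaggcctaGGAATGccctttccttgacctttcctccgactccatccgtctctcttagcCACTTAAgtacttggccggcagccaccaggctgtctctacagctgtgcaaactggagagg
Fbxo8 +373764, chr8:59403546-59403845: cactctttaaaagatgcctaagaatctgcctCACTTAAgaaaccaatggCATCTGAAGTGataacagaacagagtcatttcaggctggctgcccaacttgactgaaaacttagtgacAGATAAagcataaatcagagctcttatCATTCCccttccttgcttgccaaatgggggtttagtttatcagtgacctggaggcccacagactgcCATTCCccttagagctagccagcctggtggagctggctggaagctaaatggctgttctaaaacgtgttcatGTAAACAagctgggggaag
Spock1 +358452, chr13:57651092-57651391: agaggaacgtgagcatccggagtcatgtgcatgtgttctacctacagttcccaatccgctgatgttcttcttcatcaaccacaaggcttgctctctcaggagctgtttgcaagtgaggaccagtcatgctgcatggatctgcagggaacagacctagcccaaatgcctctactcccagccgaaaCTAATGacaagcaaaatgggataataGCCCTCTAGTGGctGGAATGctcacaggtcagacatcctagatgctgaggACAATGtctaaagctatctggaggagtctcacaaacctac

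The Fbxo8 peak held its 5 motifs in unique sequence, with overlapping HAND and NKX2 cores at bases 50 to 60, and none of its sampled sequence was repeated. It lay in the 0.770 Mb between the coding start sites of Fbxo8 and Hand2, which encodes a basic helix-loop-helix factor needed for heart formation. That interval held 2 of the 509 peaks among 5 peaks in all. The Fbxo8 peak was shown for its number of motifs, and whether it acts on Hand2 was not tested.

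The label gene desert was then checked against the GENCODE annotation of the same assembly, which lists start sites that the deposited assignments did not use. Only part of the peaks fitted the label. Of the 509, 32 (6.29%, interval 4.49 to 8.74%) had a midpoint within 1 kb of some annotated start site, and a further 100 (19.6%, 16.4 to 23.3%) lay in a gene body. Another 270 (53.0%, 48.7 to 57.3%) were intergenic with a start site of any gene type within 250 kb. The remaining 107 (21.0%, 17.7 to 24.8%) were intergenic with no start site of any kind within 250 kb. Against protein coding genes alone the label held better, as 351 peaks (69.0%, 64.8 to 72.8%) lay over 250 kb from every coding start site, and 314 of them were also outside coding gene bodies. The peaks are therefore called far peaks here, by the rule, and not desert peaks.

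**Figure D1:**
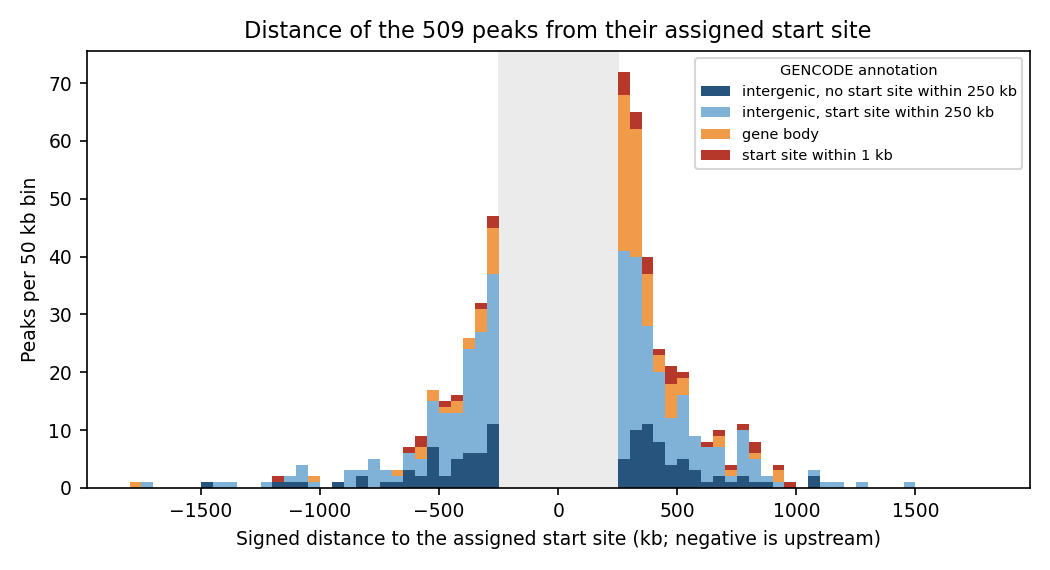
Signed distance (kb) of the 509 far peaks to the assigned start site, in bins of 50 kb, stacked by what GENCODE places at the midpoint; the grey band is the range left out by the rule. Downstream peaks outnumber upstream ones (306 against 203), and gene body peaks lie mostly on the downstream side.

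The median distance was 380 kb, the quartiles were 306 and 534 kb, and 23 peaks lay over 1 Mb away. More far peaks were downstream of the assigned start site (306, 60.1%) than upstream (203, 39.9%, interval 35.7 to 44.2%). The side differed by annotation. In gene bodies, 24.0% (16.7 to 33.2%) were upstream, against 45.1% (40.1 to 50.1%) of the 377 intergenic far peaks, a difference of -21.09 percentage points (-29.97 to -10.62). A peak inside a long gene lies downstream of that gene's start, and 60 of the 115 far peaks in a gene body of any kind carried the symbol of that gene.

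The 5 farthest upstream were assigned to Cntnap5a (-1780991 bp), Cdh20 (-1742300 bp), 4930590L20Rik (-1452658 bp), Acvr2a (-1445710 bp) and Got2 (-1393095 bp). Cntnap5a and Cdh20 encode a contactin-associated protein and a cadherin, both cell surface adhesion proteins, and Acvr2a encodes an activin receptor. The Cntnap5a peak was nevertheless in the body of 9330185C12Rik, a long noncoding RNA gene whose start lay 59987 bp away. The 5 farthest downstream were assigned to Gm20268 (1472486 bp), 2610316D01Rik (1297705 bp), D030045P18Rik (1166224 bp), 5730507C01Rik (1111809 bp) and Igsf11 (1082144 bp). All sampled 32-base words of the 2610316D01Rik and D030045P18Rik peaks, and 85.3% of those in the 5730507C01Rik peak, occurred more than once in the assembly. The Igsf11 peak had none, a GC content of 58.3%, and no other peak nearer than 865483 bp.

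Far peaks at start sites that the assignments did not use were next described. The 6 closest lay 10 bp from a start of Sntg1, 12 bp from Gm17680, 14 bp from Gm11055, 24 bp from Gm12896, 45 bp from RP23-71I22.1 and 48 bp from Gm13934. Sntg1 encodes gamma-1-syntrophin, an adaptor of the dystrophin complex. The Gm17680, Gm11055, Gm12896, RP23-71I22.1 and Gm13934 peaks consisted mostly of repeated sequence. Of the 32 far peaks within 1 kb, 14 were at protein coding genes, 8 at pseudogenes, 3 at antigen receptor V segments and the rest at noncoding RNA genes.

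Several of the 14 were at start sites of long, well known genes, named here after their values were seen. The peak assigned to Sgcd at -609574 bp lay 92 bp from another start of Sgcd, a sarcoglycan of the muscle cell membrane, with a GC content of 73.3% and a CpG observed over expected ratio of 0.92. The peak assigned to Tmem261 at -1171819 bp lay 126 bp from a start of Ptprd, a receptor tyrosine phosphatase. A peak assigned to 4930563F08Rik lay 189 bp from a start of Auts2, and a peak assigned to Chst2 lay 375 bp from a start of Slc9a9, a sodium/proton exchanger. The Dlg2 peak at 452040 bp was 287 bp from an internal start of Dlg2, a scaffold of synapses. For these peaks the deposited distance was measured from another start site or another gene.

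Within 10 kb of any GENCODE start site there were 62 far peaks (12.2%, 9.62 to 15.3%), of which 13 were at antigen receptor V segments. Peaks 100 to 250 kb from their assigned start, of the same width limit, had a like share, 12.9%, and the difference of -0.72 points had an interval of -3.85 to 2.80 points. Of the far peaks, 158 lay within 250 kb of a coding GENCODE start site, and for 56 of these that start belonged to the assigned symbol.

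Coding gene bodies held 107 far peaks in 71 named gene bodies or overlapping sets of bodies. The bodies with the most were Auts2, Ntm and Utrn with 4 each. Utrn encodes utrophin, a relative of dystrophin, and Ntm encodes neurotrimin, a neural adhesion protein. Camta1, Cntnap5b, Macrod2, Ptprd, Rad51l1 and Sdk1 held 3 each, and the median body with a far peak was 0.682 Mb long. The share of far peaks in a gene body of any type was 22.6% (19.2 to 26.4%). It was 42.1% of the 1481 peaks 100 to 250 kb away and 50.9% of the 5737 peaks 10 to 50 kb away, and the differences were -19.5 points (-23.7 to -14.9) and -28.3 points (-31.9 to -24.2).

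**Figure D2:**
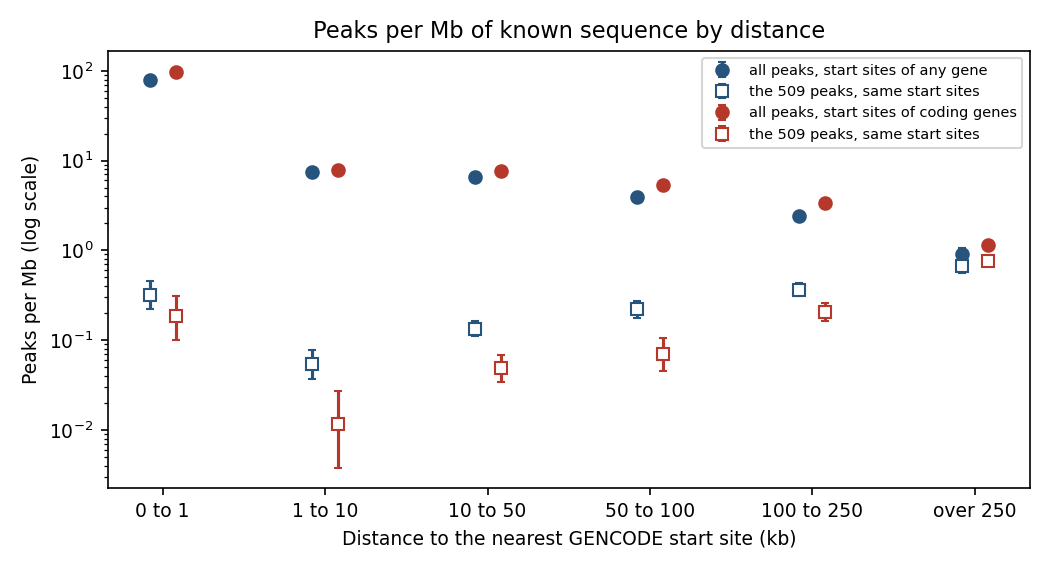
Peaks under 1500 bp per Mb of known autosomal sequence (log axis) by distance to the nearest GENCODE start site, for start sites of any gene and of coding genes. Filled points are all such peaks and open squares the 509 far peaks, with exact Poisson 95% intervals; all peaks fall from 79.2 per Mb within 1 kb to 0.917 per Mb beyond 250 kb of any start site.

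Peaks were sparse in the sequence that lies farthest from genes. Beyond 250 kb of any GENCODE start site there were 186 Mb of known autosomal sequence, which held 124 far peaks, or 0.665 per Mb (0.553 to 0.793). Counting every peak under 1500 bp regardless of its assigned distance gave 171 peaks there, or 0.917 per Mb, against 2.43 per Mb at 100 to 250 kb and 6.48 per Mb at 10 to 50 kb. Beyond 250 kb of a coding start site, 462 Mb held 351 far peaks, or 0.759 per Mb (0.682 to 0.843). By chromosome this coding value ran from 0.334 per Mb on chromosome 15 (8 peaks, 0.144 to 0.659) to 1.11 per Mb on chromosome 12 (33 peaks, 0.762 to 1.55). Between these extremes the intervals did not overlap, although both chromosomes were picked as extremes of 19. Chromosomes 4 (1.07 per Mb) and 1 (1.02 per Mb) followed chromosome 12, and their intervals overlapped it.

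In all, 795 stretches of over 500 kb were free of coding start sites. A far peak lay in 267 of them (33.6%), 3 or more lay in 36, and 135 held no listed peak of any kind. The 4.996 Mb between Cntnap5b and Cdh20 on chromosome 1 held the most, 8 far peaks, which were its only peaks, and 3 of them were mostly repeated sequence. Of these 8, 3 lay in the gene body of Cntnap5b, 407417 to 459043 bp downstream of its start. The 3.82 Mb between Dsel and Cntnap5a on the same chromosome held 6 of 7 peaks, none of them mostly repeated. The 0.897 Mb beside Sox6, a Sry-related transcription factor, held 5 of 6 peaks. Length alone did not order the counts, since 6 of the 20 stretches with the most known sequence, each over 3.11 Mb, had no far peak.

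Far peaks stood alone more often than peaks nearer to genes, a contrast that the rule partly set. Peaks were densest within 1 kb of start sites, and far peaks were chosen for their distance from the assigned ones. The median gap to the next peak was 144372 bp (interval of the median 129524 to 172343 bp), against 54826 bp for peaks at 100 to 250 kb and 16263 bp at 10 to 50 kb. Another peak lay within 10 kb of 36 far peaks (7.07%, 5.15 to 9.64%), against 12.4% of those at 100 to 250 kb, a difference of -5.28 points (-7.90 to -2.27). No peak lay within 500 kb of 66 far peaks.

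The assigned genes were many, with 354 symbols for 509 peaks, and 249 symbols had 1 far peak each. The most were 5 at Rpia, which encodes ribose-5-phosphate isomerase, and 5 at 5730507C01Rik. The 10 symbols with 4 far peaks were 1700030C10Rik, 2410018L13Rik, 4933438B17Rik, 9030624G23Rik, Gm20268, Gm20554, Hs3st3b1, Ntm, Tbc1d22a and Utrn. For 5730507C01Rik, 1700030C10Rik, 2410018L13Rik and 9030624G23Rik, all on chromosome 12, 16 of the 17 far peaks were mostly repeated sequence. At Rpia 3 of 5 were, whereas at Ntm, Utrn, Tbc1d22a, Gm20268, Gm20554 and 4933438B17Rik none was.

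Of the list of cardiac regulators, 5 genes had 7 far peaks. Isl1, a homeodomain protein that marks the second heart field, had 1 peak at 567488 bp, 611 bp wide, with no start site of any kind nearer than 411564 bp, that of Gm6404. Nr2f2, an atrial identity factor, had peaks at -258054 bp and -422552 bp, and the wider of them measured 1420 bp. Nr2f1, its close relative, had 1 at -480838 bp. Zfpm2, the GATA cofactor FOG2, had 1 at 300386 bp, inside its own gene body and 203682 bp from the nearest GENCODE start of Zfpm2. None of the 7 was mostly repeated.

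Cardiac regulators took 1.38% of the far peaks (0.668 to 2.81%), 1.49% of those at 100 to 250 kb and 0.504% of all autosomal peaks. Kcnj2, which encodes an inward rectifier potassium channel of heart muscle and belongs to the channel list, had 3 far peaks at 281614, 512150 and 777904 bp on chromosome 11. They were the only peaks in 1.37 Mb without another coding start site. The microRNA genes took 1.57% of far peaks and 4.52% of those at 100 to 250 kb, a difference of -2.95 points (-4.36 to -1.18), and 2.51% of all autosomal peaks. With a distance limit of 200 kb the microRNA share was 3.20% (2.16 to 4.72%).

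Developmental transcription factors, 22 genes with 31 far peaks, took 6.09% (4.32 to 8.52%) against 6.35% at 100 to 250 kb and 3.43% of all autosomal peaks. Besides those above they included Sox6 with 3, Prox1 with 2 at -325481 and -362367 bp, Sall1 with 2 and Irx3 with 1 at -270309 bp. Prox1 and Irx3 encode homeodomain factors of several embryonic organs. Genes for axon guidance and synaptic adhesion, 22 genes with 40 far peaks, took 7.86% (5.82 to 10.5%) against 2.23% at 100 to 250 kb and 1.06% of all, a difference from the former of 5.63 points (3.41 to 8.37). Ntm with 4, Adgrl3, Cntnap5a, Cntnap5b and Efnb2 with 3 each led this list. Cadherins and protocadherins took 1.77%, with 9 peaks at 7 genes, against 0.608% at 100 to 250 kb and 0.309% of all autosomal peaks, a difference from the former of 1.16 points (0.16 to 2.74).

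These shares depend on how much far sequence each class of gene has around it. Of the sequence over 250 kb from a coding start site, 9.01% was nearest to a guidance or adhesion gene, and it held 27 far peaks, or 0.648 per Mb (0.427 to 0.943). The value over all such sequence was 0.759 per Mb, which lies inside the interval for the guidance and adhesion genes. Cadherins and protocadherins had 0.562 per Mb (0.315 to 0.927). Developmental transcription factors, nearest to 4.71% of this sequence, had 22 far peaks, or 1.01 per Mb (0.633 to 1.53), and the interval spanned the overall value. Counting every peak under 1500 bp in that sequence gave 36 peaks, or 1.65 per Mb (1.16 to 2.29), against 1.15 per Mb over all such sequence. The lower bound, 1.1575, was barely above the overall 1.148, a value that includes this class. These intervals were not adjusted for the number of classes compared. For the cardiac regulators 3 peaks in 3.90 Mb gave 0.769 per Mb (0.159 to 2.25), too few for a comparison.

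**Figure D3:**
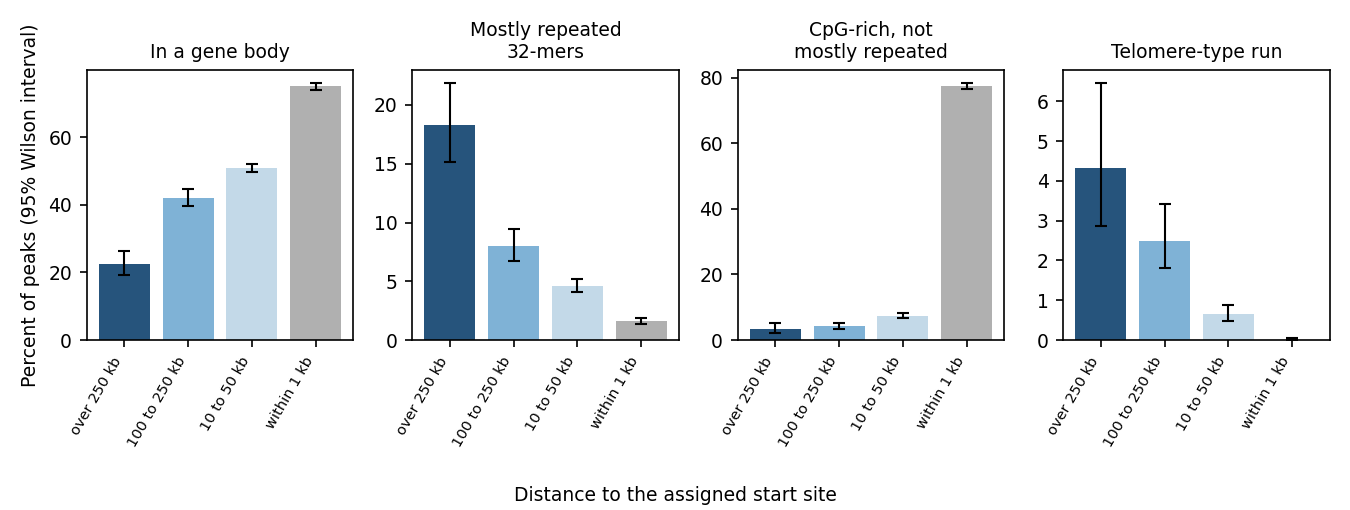
Percent of peaks with each feature, by distance to the assigned start site, for peaks under 1500 bp; bars start at 0, error lines are 95% Wilson intervals, and each panel has its own scale. From right to left the gene body share falls to 22.6% while the share of mostly repeated peaks rises to 18.3% and that with a telomere-type run to 4.32%.

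Repeated sequence was more frequent in far peaks than in nearer ones, and also more frequent around them. Each peak was read in words of 32 bases every 25 bp, and a peak was counted as mostly repeated when over 50% of the words occurred more than once in the assembly. This held for 93 far peaks (18.3%, 15.2 to 21.9%), for 7.97% of peaks at 100 to 250 kb, for 4.62% at 10 to 50 kb and for 1.60% within 1 kb. The difference was 10.3 points (6.85 to 14.1) from peaks at 100 to 250 kb and 13.7 points (10.5 to 17.3) from those at 10 to 50 kb. In 241 far peaks no sampled word was repeated.

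The sequence around far peaks was repeated less often than the peaks themselves, but more often than that around nearer peaks. In far peaks 22.3% of the words of the central 300 bp were repeated, against 16.0% in windows of the same length 2 kb to either side, a difference of 6.37 points (4.05 to 8.69). At 100 to 250 kb the difference was 0.53 points (-0.67 to 1.74), and at 10 to 50 kb it was -1.80 points (-2.35 to -1.24). In the flanks at these distances 9.78% and 9.39% of words were repeated, against 16.0% around far peaks. Mostly repeated windows made up 14.6% of flanks and 19.3% of centres in far peaks. At 100 to 250 kb they made up 7.47% and 9.59%, so part of the excess lay in the surroundings. Reads from different copies of a repeat cannot always be placed, and the filters that the methods name do not include a limit on mapping quality. Whether placement of reads among copies had a part in these peaks was not tested.

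**Figure D4:**
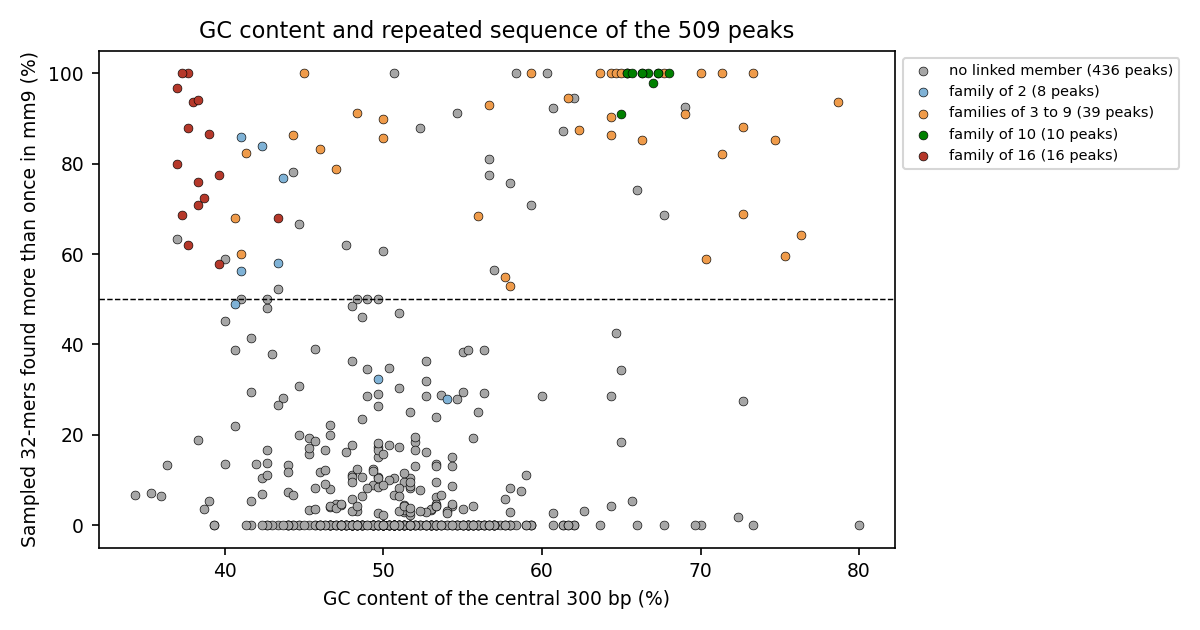
GC content of the central 300 bp (%) against the share of sampled 32-base words found more than once in mm9 (%), 1 point for each far peak, coloured by the size of the family of similar far peaks it belongs to; the dashed line is the 50% limit. The family of 16 sits near 38% GC and the family of 10 near 66%, both above the line.

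Some far peaks also resembled one another. Linking any pair that shared at least 100 words of 32 bases joined 73 peaks (14.3%, 11.6 to 17.7%), and 65 of these fell into 10 families of 3 or more. Nearer peaks were not linked among themselves, so no share from them stands beside this one. The family of 16 lay on 8 chromosomes, with a median GC content of 38.2% and a median of 62.8 copies of each word in the assembly, and its members included peaks assigned to Cdh20, Cdh7, Frk, Olfm3 and Snrpn. A family of 10 on 7 chromosomes was GC-rich (median 66.5%) with a median of 778 copies, and all 10 passed the CpG limit. These families were not confined to far peaks, since 93 other autosomal peaks were linked to the family of 16 and 15 to the family of 10.

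Another family had 9 peaks, all on chromosome 12, with GC contents of 69.0 to 78.7% and a median of 3 copies. The start sites of Gm17680, Gm17391, Gm6802 and Gm10479 were among those nearby, and 6 of the 9 peaks lay within 1 kb of a GENCODE start site. In the stretch that held them, from 19252486 to 24329048 on chromosome 12, there were 40 peaks, of which 18 were far peaks and all 18 were mostly repeated. These 18 were 18 of the 51 far peaks on chromosome 12, the chromosome with the highest value per Mb beyond 250 kb of a coding start site. Beyond 250 kb of any start site the value on chromosome 12 was 0.662 per Mb, below the 1.41 on chromosome 18 and the 1.27 on chromosome 13.

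Antigen receptor loci, whose V segments are arrays of related genes rearranged in lymphocytes, held 15 far peaks (2.95%). The immunoglobulin kappa locus on chromosome 6 had 8, between 67837458 and 70340070, of which 4 were mostly repeated. The T cell receptor alpha locus on chromosome 14 had 6, between 53652183 and 54377450, all mostly repeated, and the heavy chain locus had 1. The V segments were not among the assigned genes, so these peaks carried symbols such as Rpia, Rprl1, Olfr1507 and Dad1, although GENCODE start sites lay 48 to 17833 bp away.

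A small share of far peaks, and of nearer ones, held telomere-type DNA. A run of at least 4 hexamers CCCTAA, on either strand, was found in 22 far peaks (4.32%, 2.87 to 6.46%). The share was 2.50% at 100 to 250 kb, 0.645% at 10 to 50 kb and 0 of 7141 peaks within 1 kb, which allows a share of up to 0.042%. Over all autosomal peaks it was 0.512%, or 131 peaks. Far peaks exceeded those at 100 to 250 kb by 1.82 points (0.10 to 4.06) and those at 10 to 50 kb by 3.68 points (2.21 to 5.82). The 22 included the peaks assigned to Isl1, with a longest run of 6 hexamers, Kcnh1 (14), Cdh12 (8), Slitrk1 (10) and Adgrl3 (13). Kcnh1 encodes a channel, Cdh12 a cadherin, and Slitrk1 and Adgrl3 synaptic adhesion proteins.

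The runs lay in the peaks and not beside them. In far peaks 17 central windows of 300 bp had a run, against 0 of 1018 flanking windows, which allows a share of up to 0.295%. The autosomes held 240 such loci after runs within 1 kb were joined, and 131 of them (54.6%, 48.3 to 60.8%) overlapped a listed peak, although listed autosomal peaks covered 1.29% of the known sequence. Of the 11 loci over 250 kb from any GENCODE start site, 6 overlapped a peak (54.5%, 28.0 to 78.7%). Nearer loci did so too, with 62.5% of 88 at 50 to 250 kb and 50.7% of 136 at 1 to 50 kb. Within 1 kb it was 1 of 5. Overlap with a peak was therefore not particular to the far loci. Reads from chromosome ends carry the same hexamers, and their part in these peaks was not tested.

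Base composition followed the same split. The median GC content of the central 300 bp was 51.0% (50.3 to 51.3%), against 40.8% in the flanks, and it was 52.3% for peaks at 100 to 250 kb and 66.0% within 1 kb. It ran from 34.3% in the Epha7 peak at -636172 bp (chr4:28103919-28104301) to 80.0% in the Naaladl2 peak at -360079 bp (chr3:25042428-25043588). The latter had a CpG observed over expected ratio of 1.13, no repeated words, a nearest start site 68344 bp away and a nearest other peak 1456790 bp away. Epha7 encodes an ephrin receptor.

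CpG-rich peaks were those with at least 50% GC in the centre and a CpG ratio, observed over expected, of 0.6 or more. This held for 51 far peaks (10.0%, 7.70 to 12.9%), above the 5.60% at 100 to 250 kb by 4.42 points (1.76 to 7.52). Most of them, 34 of 51, were mostly repeated. Counting only CpG-rich peaks that were not mostly repeated left 17 far peaks (3.34%, 2.10 to 5.28%) against 4.19% at 100 to 250 kb, a difference of -0.85 points (-2.54 to 1.30), so the excess was not seen without repeated sequence. Of the 17, 4 were within 1 kb of a GENCODE start site.

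Short sequence motifs were counted in the central 300 bp on both strands and in the flanking windows 2 kb to either side. The 14 motifs were named for the protein families that bind them: GATA factors for the letters AGATAA, TEAD for GGAATG, MEF2 for CTAAAAATA, NKX2 for TNAAGTG, ISL1 for CTAATG, HAND for CATCTG, TBOX for AGGTGTGA, SOX for ACAATG, OCT for ATGCAAAT, AP1 for TGANTCA, FOX for TGTTTAC, ESRR for CAAGGTCA, KLF for GGGTGTGG, and the longer CTCF motif by name alone. Neighbouring cores can overlap, and a match is not a binding site. In 124 far peaks (24.4%) no motif was found, and 35 held 4 or more. The same counts are not given for other peaks or for flanks, so neither can be called high or low.

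**Figure D5:**
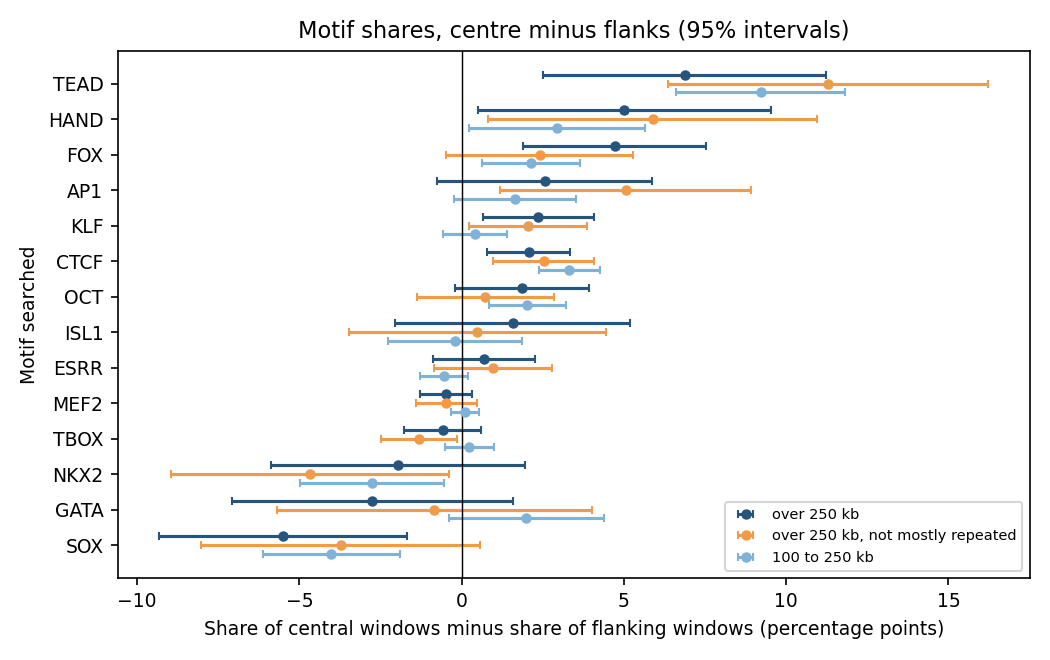
Share of central 300 bp windows with each motif minus the share of flanking windows, in percentage points with 95% intervals, for the 509 far peaks, the 416 not mostly repeated and the 1481 peaks at 100 to 250 kb. TEAD lies highest in far peaks (6.88 points) and SOX lowest (-5.50 points).

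In 5 of the 14 cases a motif was more frequent in the centres of far peaks than in their flanks, with an interval above 0. TEAD, the core of the effectors of Hippo signalling, was in 23.4% of centres and 16.5% of flanks, a difference of 6.88 points (2.51 to 11.2). HAND, an E-box core of heart and mesoderm bHLH factors, was in 25.7% and 20.7% (5.01 points, 0.50 to 9.52). The HAND interval spanned 0 in the central 150 bp (2.85 points, -0.75 to 6.45), in a window of doubled length and in peaks over 300 kb away (2.69 points, -2.30 to 7.69). FOX, bound by forkhead factors, was in 9.23% and 4.52% (4.72 points, 1.90 to 7.53). KLF was in 3.54% and 1.18% (2.36 points, 0.65 to 4.07), and CTCF, which anchors chromatin loops, in 2.16% and 0.0982% (2.06 points, 0.78 to 3.34). The KLF interval spanned 0 with flanks at 5 kb (1.77 points, -0.05 to 3.59).

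In windows of 300 bp, GATA, NKX2, ISL1, MEF2 and TBOX did not stand above the flanks, whereas HAND did, as given above. MEF2 differed by -0.49 points (-1.28 to 0.30) and TBOX by -0.59 points (-1.78 to 0.60). GATA was in 20.4% of centres and 23.2% of flanks (-2.75 points, -7.08 to 1.58), NKX2 in 15.9% and 17.9% (-1.96 points, -5.88 to 1.95), and ISL1 in 13.9% and 12.4% (1.57 points, -2.05 to 5.20). This depended on the window, since in the central 150 bp ISL1 stood above the flanks by 3.63 points (0.75 to 6.52) and GATA below them by -3.83 points (-7.26 to -0.41). In windows of doubled length, GATA (-6.39 points, -11.4 to -1.39), NKX2 (-7.86 points, -12.5 to -3.20) and MEF2 (-1.28 points, -2.23 to -0.32) lay below the flanks. The ISL1 and TBOX intervals spanned 0 there. SOX was in 13.6% of centres and 19.1% of flanks (-5.50 points, -9.32 to -1.69). Flanks were more AT-rich than centres, as given above, and the part of base composition in these differences was not tested. The shares in all autosomal peaks were 9.51% for GATA, 16.6% for TEAD, 9.69% for NKX2, 6.55% for ISL1, 16.9% for HAND, 8.04% for SOX, 3.59% for FOX, 3.41% for KLF and 3.00% for CTCF. For the others they were 6.83% for AP1, 1.94% for OCT, 1.18% for ESRR, 1.17% for TBOX and 0.230% for MEF2.

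The family of 16 carried many of these matches. ISL1 was found in 15 of its 16 peaks, which is 15 of the 71 far peaks with that core, FOX in 14 of the 47 with FOX, and NKX2 in 13 of the 81 with NKX2. Among the 416 far peaks not mostly repeated, FOX was in 7.45% of centres and 5.05% of flanks, a difference of 2.40 points (-0.48 to 5.28), whereas the TEAD difference was 11.3 points (6.37 to 16.2). AP1 differed by 5.05 points (1.19 to 8.91) in those 416. SOX no longer lay below the flanks there (-3.73 points, -8.03 to 0.58), whereas NKX2 did (-4.69 points, -8.97 to -0.41), as did TBOX (-1.32 points, -2.49 to -0.15).

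Against peaks at 100 to 250 kb, 13 of the 14 motif shares in far peaks had a difference whose interval spanned 0. The exception was ESRR, the core of the oestrogen-related receptors, found in 13 far peaks (2.55% against 1.22%, a difference of 1.34 points, 0.07 to 3.16). These intervals were not adjusted for the 14 comparisons. For TEAD the difference was -2.21 points (-6.36 to 2.22), for FOX 2.28 points (-0.35 to 5.35) and for CTCF -1.28 points (-2.70 to 0.57). CTCF was less frequent in far peaks than in peaks at 10 to 50 kb, with a difference of -3.92 points (-5.07 to -2.15). GATA was more frequent than there by 5.25 points (1.84 to 9.08), but its flank share was also higher, 23.2% against 14.2%. Centres minus flanks, GATA was at -2.75 points (-7.08 to 1.58) in far peaks and 0.97 points (-0.17 to 2.10) at 10 to 50 kb. The 11 far peaks with a CTCF match were all outside mostly repeated sequence and included the Spock1 peak shown above and 1 at Sox6 (378508 bp).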

How the data were processed

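Open chromatin in day 5 CPCs was profiled in 2 replicates. Per the study's methods, the authors mapped reads to mm9 with Bowtie2, filtered them with SAMtools and Picard 1.136, ran MACS on each replicate, dropped blacklisted regions and, with bedtools 2.15, kept regions overlapping by at least 1 bp between replicates. The deposited list gives start, end and signed distance to a TSS in bp with an accession and a symbol; these coordinates have no other unit, and there is no score, depth or value by replicate. The aligner's handling of reads with several equal placements is not given in the sources used here.

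Distinct intervals were compared with mm9 sequence and GENCODE vM1 in Python 3.11.15. Windows of 300 bp, words of 32 bases every 25 bp and regular expressions were used, with Wilson intervals for shares, Newcombe intervals for differences of shares, exact Poisson intervals for values per Mb and normal intervals for paired centre and flank differences. Peaks 100 to 250 kb, 10 to 50 kb and within 1 kb of the assigned TSS, also under 1500 bp, were compared. Scripts were tested on simulated data. Named peaks were the 5 farthest on each side, the genes with the most, the cardiac regulators, the 6 closest to a GENCODE start and the GC extremes. The members and lists were chosen with earlier results of these data known, and the repeat and telomere-type measures after the data were seen. Some items are not reported here.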

Additional observations from a re-analysis of the deposited data

Results flagged for a closer look

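A pair of sets outside the comparisons also held peaks over 250 kb from the assigned start site. On the sex chromosomes there were 14 under 1500 bp, all on X, at 299690 to 919368 bp and 395 to 1442 bp wide. On the autosomes 21 were 1500 bp or wider, up to 2539 bp, and of these 11 were CpG-rich, 8 mostly repeated and 7 within 1 kb of a GENCODE start site. Both are exact counts of peaks that the limits on chromosome and width left out.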

How the results depend on the processing

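Of 62 recomputed main values, 51 stayed within the interval of the reported value, or within 1.5 times a reported count. With a distance limit of 200 kb the gene body share was 27.5% and the value per Mb beyond that limit 0.898. Measured to the nearest GENCODE start site of any gene, 171 peaks lay over 250 kb away. The share near a GENCODE start was 6.29% within 1 kb, and 9.38% within 10 kb when mostly repeated peaks were left out. Leaving these out also gave a CpG-rich share of 4.09%. Another peak lay within 5 kb of 3.54% and within 25 kb of 14.9%. In central windows of doubled length, 3 motifs and not 5 were above the flanks. Limits of 25% and 90% repeated words gave shares of 26.7% and 7.86%. Settings on repeated sequence were chosen after the data were seen. Of 56 values for single gene classes, 1 left the reported interval, the microRNA share of 3.20% with a limit of 200 kb. Of 112 differences for single motifs, 5 changed sign, all of them with intervals that spanned 0 in both settings. With windows of doubled length AP1 was at -0.49 points, ISL1 at -0.098 and TBOX at 0.39, with the central 150 bp ESRR was at -0.098, and with flanks at 5 kb TBOX was at 0.20. In 8 cases an interval came to span 0, for HAND in 4 settings, KLF in 2, and FOX and SOX without mostly repeated peaks, and in 10 cases an interval ceased to. No paired analysis was possible because both samples belong to 1 group, and neither replicate could be left out because the list holds no value for either. Unknown depth limits what absence from the list can show.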
